A study of Papio hamadryas with 17 samples.

Results

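The vessel lining of the kidney was examined through 9 endothelial genes in kidney cortex biopsies of 17 baboons (Papio hamadryas). The genes were chosen by symbol from known biology, with earlier results of these data known. EHD3 and EMCN stood for the glomerular type of endothelium. VWF, PECAM1, CDH5, KDR, FLT1, TEK and PLVAP stood for endothelium in general. All 9 were among the 13850 genes of the table of females, and 6 of them (PECAM1, CDH5, KDR, FLT1, TEK and PLVAP) were among the 9818 genes present for both sexes. The copy of the table of males used here breaks off in the middle of a row. EHD3, EMCN and VWF are not among the rows held, so they are described in females alone, and whether the full table lists them was not examined.

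Endothelial cells line every blood vessel, but their form follows the organ. Glomerular capillaries have open fenestrae and depend on vascular endothelial growth factor A (VEGFA) released by the podocytes that wrap them, which signals mainly through the receptor KDR. Peritubular capillaries have fenestrae closed by diaphragms built from PLVAP. Skeletal muscle capillaries are continuous, without fenestrae.

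The study compared gene networks of the kidney cortex between the sexes. It held 8 females, labelled with ages 15 to 19, and 9 males, labelled with ages 6 to 13, of the colony at the Southwest National Primate Research Center. The labels give no unit of age, and years were assumed. All animals had eaten a low salt chow throughout life, had no treatment, and gave 1 ultrasound-guided biopsy and 1 stranded mRNA library each. The names of the libraries form 1 series in females and 2 in males, series A with 5 libraries and series B with 4. Sex therefore cannot be told apart from age or from library series.

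Values are called signal: the deposited abundance of each transcript minus its offset of 1, summed per gene. The summed signal over genes of both tables was 255529 to 659319 per library. Read totals are unknown. Signal is not known to be scaled to transcript length, so levels are compared between libraries and not between genes. Female 1, female 2 and male 6 are called muscle-rich: skeletal muscle actin ACTA1 had a signal of 51850, 81747 and 35238 in them and at most 9.53 in each of the other 14 libraries. Creatine kinase CKM was 19905, 29472 and 19110 in them, against at most 18.6. The labels name kidney cortex alone, so these 3 libraries go against them in holding skeletal muscle RNA. The kidney gene UMOD, of the thick ascending limb, had a signal of 20.8 and 12.3 in the 2 muscle-rich females, 938.6 in male 6 and 1669 to 11030 in the others. Since measured genes set these libraries apart, they are described beside the others without a test.

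**Figure D1:**
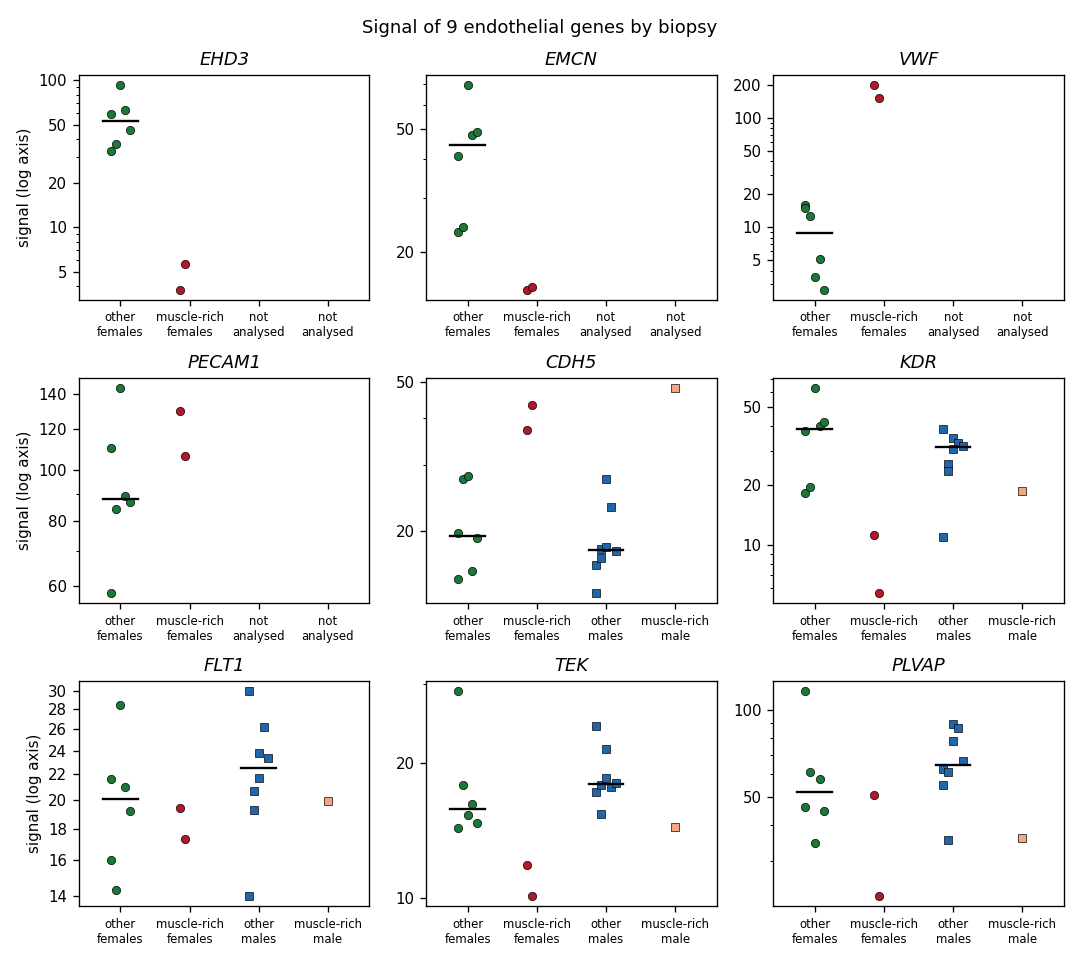
Signal of each of the 9 genes on a log axis. Each point is 1 biopsy, grouped as the 6 other females, the 2 muscle-rich females, the 8 other males and the muscle-rich male, and bars mark group medians. EHD3, EMCN, KDR and TEK lie lower in the muscle-rich females than in every other female, and VWF and CDH5 lie higher. PECAM1 is drawn for females alone because 1 of its 4 transcripts was held for males.

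EHD3, an endocytic recycling protein of glomerular endothelium (30408980 to 30442016 on the plus strand of NC_018164.2), was the member with the largest deficit in the muscle-rich females. Its signal was 3.79 and 5.68 there. In females 3 to 8 it was 33.0, 37.1, 92.8, 62.7, 46.2 and 59.1, a mean of 55.1 ± 21.9 (SD, n = 6). The groups did not overlap, and the difference was -3.23 on the log2(signal + 1) scale, or 9.36-fold lower. In bulk tissue, fewer cells of a type and less RNA per cell cannot be told apart.

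EMCN, or endomucin, a sialomucin on the surface of capillary and venous endothelium (96263553 to 96385359 on the minus strand of NC_018156.2), was lower by less. Its signal was 15.1 and 15.5 in the muscle-rich females. The other females had 23.3, 24.2, 69.5, 48.0, 48.8 and 41.0, a mean of 42.5 ± 17.4 (SD, n = 6). The difference was -1.31 on the log2 scale, again without overlap. The gap was narrow: the lowest other female, female 3, was at 23.3.

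Of the 10 genes on a list of glomerular endothelium, which holds EHD3 and EMCN, 4 were lower in both muscle-rich females than in every other female and 3 were higher, beside 18.2% lower and 44.9% higher over the 13747 genes described in the same way. PLAT, the tissue-type plasminogen activator, was among the lower ones with 17.0 and 8.52 against 60.0 to 148.6. LPL, lipoprotein lipase, was among the higher ones with 259.0 and 248.5 against 12.4 to 40.0. LPL is also made in quantity by muscle and fat cells.

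The VEGF receptors parted. KDR, the main signalling receptor for VEGFA on endothelium (85893044 to 85939887 on the plus strand of NC_018156.2), had 11.1 and 5.68 in the muscle-rich females. It had 18.4, 19.7, 62.5, 40.1, 42.3 and 37.7 in females 3 to 8. KDR was lower by 1.95 on the log2 scale, without overlap, a wider gap for a general member than for the glomerular-type EMCN. FLT1, the high-affinity receptor that also traps VEGFA (7582563 to 7780672 on the minus strand of NC_018168.2), had 19.4 and 17.4, inside the range of 14.4 to 28.5 of the other females. Its difference was -0.09. The within-library log2 ratio of KDR to FLT1 was -0.75 and -1.46 in the muscle-rich females and 0.19 to 1.11 in the others.

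Of 7 measured VEGF ligands and co-receptors, 2 were higher in the muscle-rich females and 1 lower, beside 44.9% and 18.2% of all genes. The lower one was VEGFA, with 124.5 and 130.6 against 144.3 to 249.4. VEGFB, a ligand of FLT1, was higher with 124.3 and 83.5 against 28.6 to 56.7. The co-receptor NRP1 was higher with 39.0 and 26.2 against 17.1 to 26.1, the 2 ranges nearly touching.

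CDH5, or VE-cadherin, the adhesion protein of endothelial junctions (48712247 to 48750816 on the plus strand of NC_018171.2), was higher in the muscle-rich females. Its signal was 37.2 and 43.5, against 19.7, 27.5, 28.1, 15.6, 19.1 and 14.8 in females 3 to 8. The difference was 0.96 on the log2 scale, without overlap. PECAM1, which joins neighbouring endothelial cells and is also carried by leukocytes and platelets (56429890 to 56504372 on the minus strand of NC_018167.2), overlapped. It had 129.8 and 106.4 in the muscle-rich females and 58.3, 84.3, 143.3, 89.4, 87.0 and 110.3 in the others. The 6 measured genes of blood cells and leukocytes summed to 105.1 and 342.4 in the muscle-rich females and 32.0 to 255.8 in the others. The red cell gene HBB carried most of the sums in the muscle-rich females, with 91.1 and 329.1. The leukocyte gene PTPRC had 1.73 and 0.35 there, against 0.63 to 1.61. Of the 6 genes 0 were higher and 0 lower, beside 44.9% and 18.2% of all genes. The part of blood cells and leukocytes in the PECAM1 signal was not tested.

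VWF, the adhesive glycoprotein that endothelium stores for platelet capture (6068415 to 6252663 on the minus strand of NC_018162.2), had the largest excess. The muscle-rich females had 198.5 and 149.9. Females 3 to 8 had 15.9, 12.6, 3.50, 5.09, 2.68 and 14.9, a mean of 9.12 ± 6.01 (SD, n = 6). The difference was 4.36 on the log2 scale, or 20.5-fold higher, and the nearest values of the groups were 149.9 and 15.9. A list of coagulation and adhesion at the endothelium, on which VWF itself stands, had 3 higher genes of 9, VWF, F8 and THBD, and 1 lower, beside 44.9% and 18.2% of all genes. Relative to 24 other endothelial genes, 3 were higher and 4 lower, beside 29.6% and 28.9% of all genes. THBD, thrombomodulin, had 21.4 and 17.5 against 4.45 to 10.9, and ICAM1 overlapped with 5.44 and 7.57 against 6.38 to 13.7.

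TEK, the receptor of the angiopoietins (48252192 to 48374501 on the minus strand of NC_018166.2), had 11.8 and 10.1 in the muscle-rich females. Females 3 to 8 had 28.8, 17.8, 15.3, 16.2, 14.7 and 14.3. The difference was -0.62, without overlap, though the lowest of the others was only 14.3. None of the 4 measured genes of the angiopoietin axis stood apart, where 44.9% of all genes were higher and 18.2% lower. TIE1, the partner receptor of TEK, had 23.7 and 17.4 against 14.8 to 26.3. PTPRB, the phosphatase that restrains TEK, had 22.5 and 17.7 against 14.6 to 30.0.

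PLVAP, the diaphragm protein of fenestrated endothelium (15913684 to 15938575 on the minus strand of NC_018170.2), had 50.6 and 22.7 in the muscle-rich females. Females 3 to 8 had 116.0, 60.8, 34.5, 57.6, 44.7 and 46.3. The groups overlapped, with a difference of -0.69. The list of peritubular capillary and vein genes held 3 higher and 2 lower genes of 8, beside 44.9% and 18.2% of all genes. NR2F2, a transcription factor of venous endothelium, was lower with 44.5 and 26.2 against 61.9 to 130.0. IGFBP5, which many mesenchymal cells also make, was higher with 1540 and 1415 against 351.9 to 784.2.

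**Figure D2:**
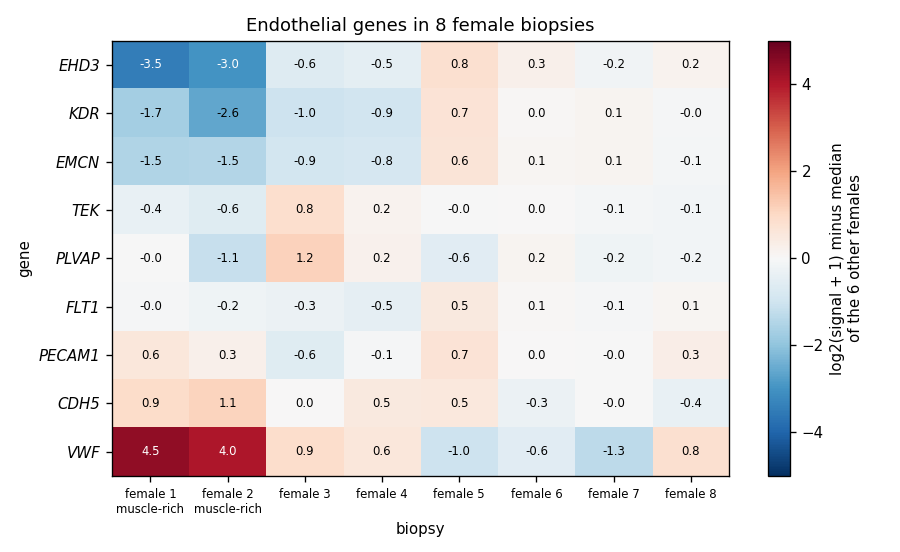
Each cell gives log2(signal + 1) of a gene in 1 female biopsy minus the median of the 6 other females, by colour and number. Both muscle-rich columns are lowest for EHD3, KDR, EMCN and TEK and highest for CDH5 and VWF, while FLT1, PLVAP and PECAM1 do not separate them.

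In all, 2 of the 9 members were higher and 4 lower in both muscle-rich females than in the other 6. Over all 13747 genes, 44.9% were higher and 18.2% lower, and the median difference was 0.47. Both glomerular-type members were lower. The 7 general members had a median difference of -0.09, with VWF and CDH5 higher, KDR and TEK lower, and the remaining 3 overlapping. They did not move as a group.

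With each library scaled to its median, the median over all genes moved from 0.47 to 0.05. The background became 34.3% higher and 26.8% lower. EHD3, EMCN, KDR and TEK stayed lower at -3.65, -1.79, -2.40 and -1.08, and VWF stayed higher at 3.88. CDH5 then overlapped at 0.47, and PLVAP became lower at -1.18. Relative to the mean of 24 other endothelial genes, called the endothelial reference, the same 4 genes were lower and VWF was higher, while CDH5 at 0.43 and PLVAP at -1.22 overlapped. The background was then 29.6% higher and 28.9% lower.

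Of the 24 genes of the endothelial reference, 11 were higher in the muscle-rich females, a share close to the 44.9% of all genes, and 0 were lower, beside 18.2% of all genes. Their median difference was 0.58, beside 0.47 for all genes. CALCRL, 1 of the 11, reached a signal of 1 in too few of the other females to be described without the muscle-rich pair. ENG, a co-receptor of TGF-beta, had 90.2 and 86.8 against 60.8 to 109.6. CD34, a surface sialomucin, had 67.8 and 139.9 against 33.5 to 65.3. With median scaling, 6 of the 24 were higher and 2 lower, beside 34.3% and 26.8% of all genes. On the list of muscle and continuous capillary genes, 6 of 8 were higher and 1 lower. MEOX2 and TCF15, among the higher ones, entered the description only through the muscle-rich females, so their call was fixed by the filter on low values. Of the remaining 6 genes, 4 were higher and 1 lower, where 43.2% and 18.9% were so over the 13225 genes that met the filter in the other females alone. FABP4, a fatty acid carrier, had 315.2 and 276.7 against 0.07 to 1.91. The fatty acid transporter CD36 had 137.8 and 120.3 against 0 to 9.73. CA4, a carbonic anhydrase of capillaries and also of kidney tubules, was the lower one, with 1.66 and 3.47 against 40.5 to 58.8. FABP4 and CD36 are not particular to endothelium.

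Of 7 measured arterial genes, 1 was higher and 1 lower, beside 44.9% and 18.2% of all genes. With median scaling 0 were higher and 3 lower, beside 34.3% and 26.8% of all genes, with a median of -0.75. Relative to the endothelial reference the counts were the same, beside 29.6% and 28.9% of all genes, with a median of -0.81. The lower one on the deposited scale was SEMA3G, a secreted semaphorin, with 35.7 and 35.3 against 42.5 to 64.0. Of 4 lymphatic genes none stood apart, beside 44.9% higher and 18.2% lower of all genes. FLT4, the lymphatic VEGF receptor, had 14.8 and 11.6 against 8.42 to 17.1. Among 9 genes of pericytes and smooth muscle, 2 were higher and 0 lower, beside 44.9% and 18.2% of all genes. Their summed signal was 796.8 and 818.5 against 292.8 to 828.6. The 6 measured immediate early and stress genes summed to 291.8 and 400.4, above the highest sum reached by the other females, 117.4. JUN carried most of these 2 sums, with 170.1 and 274.5. Of the 6 genes 3 were higher and 1 lower, beside 44.9% and 18.2% of all genes. The lower one was IER2, with 11.1 and 12.0 against 23.4 to 30.2. The part of immediate early and stress genes in these differences was not tested.

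Male 6 was the third muscle-rich biopsy, with more kidney signal than the muscle-rich females. Among the 6 members held for males, CDH5 was higher than in all 8 other males and TEK lower, where 21.5% of 9414 genes were higher and 46.7% lower. CDH5 was 48.1, against 13.6, 17.9, 27.5, 23.1, 17.6, 16.2, 16.9 and 18.1 in males 1 to 5 and 7 to 9. TEK was 14.4 against 15.4 to 24.1. KDR, at 18.8, lay inside the range of 10.9 to 38.7 set by the other males, as did FLT1 at 20.0 and PLVAP at 36.1. The log2 ratio of KDR to CDH5 was -1.31 in male 6, -1.65 and -2.74 in females 1 and 2, and -0.46 to 1.31 in the other 14 libraries. FABP4 had 139.4 in male 6 and at most 0.31 in the other males.

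VWF, PECAM1 and TEK were listed as more than 1 transcript. VWF had 3 transcripts, named variants X1 to X3, and each was higher in both muscle-rich females than in every other female. Variant X2 had 95.9 and 102.3 against 0.28 to 10.4, and variant X3 had 92.2 and 35.4 against 0.16 to 6.07. The shares of the variants overlapped between the groups. PECAM1 came mostly from variant X6, which held 59.3% to 77.4% of its signal in the 8 females. The variant of PECAM1 held for males, X8, carried only 0.520% to 4.66% of the PECAM1 signal. TEK came from 2 variants, and X2 held 51.3% to 85.1%. Shares of near-identical transcripts depend on how reads were divided among them, which is not given in the sources used here.

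**Figure D3:**
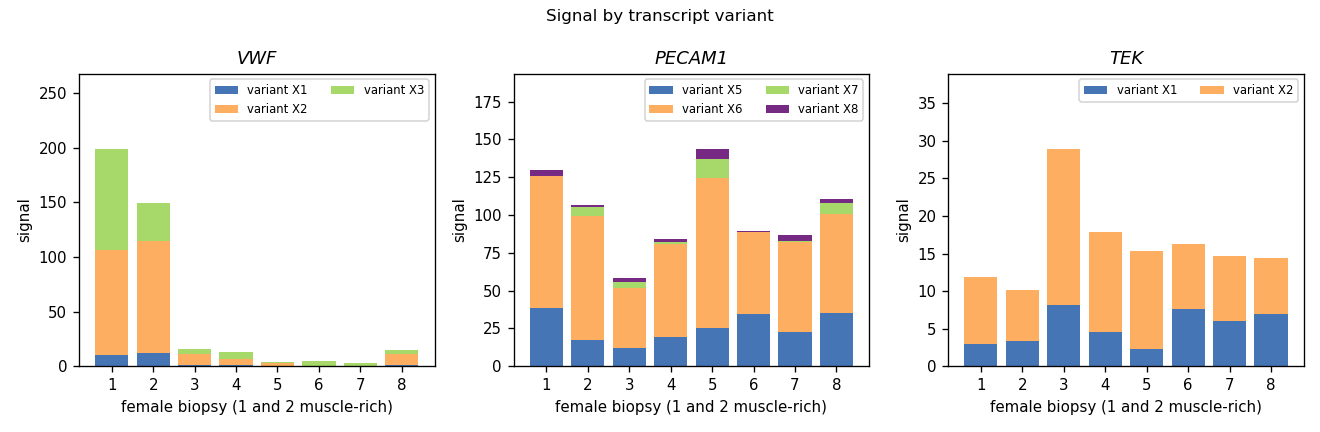
Stacked bars give the signal of each transcript variant in the 8 female biopsies for VWF, PECAM1 and TEK. VWF is high in females 1 and 2 through all 3 variants, TEK is highest in female 3, and PECAM1 variant X8 is a thin band in every bar.

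The 6 other females differed among themselves in an ordered way. Female 5 had the highest EHD3, EMCN, KDR, FLT1, PECAM1 and CDH5 of the 6. Females 3 and 4 had the 2 lowest values of EHD3, EMCN, KDR, FLT1 and PECAM1. PLVAP and TEK ran the other way, with females 3 and 4 highest for both, at 116.0 and 60.8 for PLVAP and 28.8 and 17.8 for TEK.

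Podocyte genes were placed beside these values because podocytes share the glomerulus with this endothelium. The slit diaphragm gene NPHS1, the transcription factor WT1 and the phosphatase PTPRO summed to 1.41 in female 3, 21.6 in female 4, and 106.7, 64.3, 75.2 and 87.7 in females 5 to 8. The sums were 0 and 0.32 in the muscle-rich females. Female 3 had 33.0 of EHD3 and 23.3 of EMCN, and the highest values in the muscle-rich pair were 5.68 and 15.5. For the rest of the podocyte list, female 3 had SYNPO at 64.2, PODXL at 50.5, NES at 19.7, PLCE1 at 2.87 and CLIC5 at 1.86. Each of these was the lowest of the 6 other females. The podocyte list of 8 genes had 2 higher and 2 lower genes in the muscle-rich females, beside 44.9% and 18.2% of all genes. NPHS1 and PTPRO were at 0 in both. SYNPO and CLIC5, the higher ones, had 1556 to 1906 and 408.2 to 706.2, and both genes are also expressed outside podocytes. PODXL, a sialomucin of podocytes that endothelium also makes, was lower with 35.3 and 40.1 against 50.5 to 429.1. The part of podocyte-bearing tissue in the spread of the members was not tested.

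**Figure D4:**
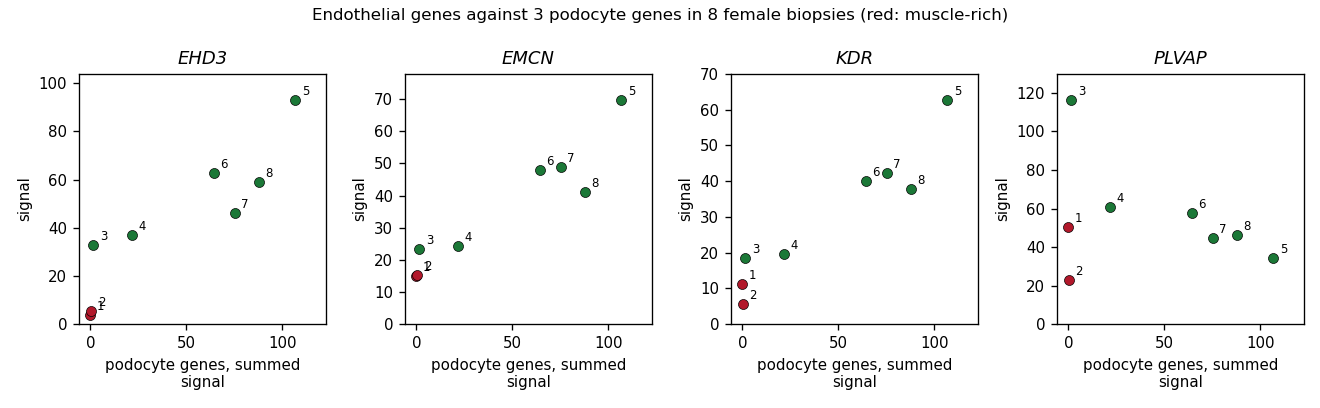
Signal of EHD3, EMCN, KDR and PLVAP in each female biopsy against the summed signal of NPHS1, WT1 and PTPRO, with the number of the female beside each point and muscle-rich biopsies in red. EHD3, EMCN and KDR are highest in female 5 and lowest in the red points, and PLVAP is highest in female 3, where the podocyte sum is 1.41.

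Male 1 had the lowest KDR of the other males, 10.9, and the lowest FLT1, 14.03, and CDH5, 13.6, of all males. Its PLVAP, 55.2, and TEK, 17.2, were neither the highest nor the lowest of the males. In this it differed from females 3 and 4, which were high for both. Its PODXL signal, 70.8, was also the lowest of the 9 males, where the others had 112.4 to 265.2. CLIC5 and PLCE1 of the podocyte list were also lowest in male 1, at 12.3 and 0.02455. The value of PLCE1 is near the floor and rests on part of its transcripts, which gave 0.28 of its 9.70 in female 1. PTPRO, on its transcripts held for males, was instead lowest in male 6, at 0.00095. It was 1.10 in male 1 and 2.62 to 6.35 in the remaining males. The KDR of male 1 was also below the 18.8 of the muscle-rich male 6, so among males the lowest KDR was not in the muscle-rich library.

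Genes were ranked by how closely their log2 signal followed the members across libraries that were not muscle-rich, as a description over few points that share the scaling of their library. For the mean of EHD3 and EMCN over 6 females, the 3 closest of 6432 genes were SIK1 with r = 0.99, KDR with r = 0.98 and NPNT with r = 0.97. FLT1 was at rank 4 with r = 0.97 and PECAM1 stood at rank 50 with r = 0.88. CDH5 had r = -0.01, TEK r = -0.71 and PLVAP r = -0.84. Of 6 ranked podocyte genes, 4 were in the top 100: NPHS1, PODXL, WT1 and NES. The top 100 make up 1.55% of the genes ranked. None of 4 ranked genes of glomerular endothelium and none of 17 of the endothelial reference were among them. Genes of these lists with lower signal were not ranked, so whether they followed EHD3 and EMCN was not examined. For the mean of the members in both tables over 14 libraries, the 3 closest of 4702 genes were EPAS1 with r = 0.85, FGD5 with r = 0.81 and SLC16A3 with r = 0.80. EPAS1 encodes an oxygen-sensitive transcription factor and FGD5 an exchange factor of endothelium.

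The authors' deposited module colours mark groups of co-expressed transcripts, and those for females divided the members. Of 15 member transcripts, 6 were in the module named lightyellow: EHD3, EMCN, KDR, FLT1 and 2 variants of PECAM1. That module held 939 transcripts, 3.52% of the table. Of 14 podocyte transcripts, 3 were also in it. So were 7 of 43 transcripts of the endothelial reference and 4 of 13 of glomerular endothelium, a list that holds EHD3 and EMCN. CDH5, VWF variants X1 and X2 and PECAM1 variant X6 were in blue, which held 41.7% of all transcripts. PLVAP and TEK variant X2 were in tan, which held 12.2%. In the colours for males, KDR, FLT1 and TEK variant X2 shared blue, PLVAP and PECAM1 variant X8 shared black, CDH5 was in turquoise and TEK variant X1 in magenta. The modules of females were built with the muscle-rich biopsies among the 8 columns of that table.

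No member differed between the sexes in the test over all 17 libraries. With limma and Benjamini-Hochberg adjustment over 9414 genes at a threshold of 0.05, 0 of the 6 members passed and 0 had an unadjusted p under 0.05. Of all genes 13.6% passed, 0.372% higher and 13.2% lower in females, with a median difference of -0.28. CDH5 differed by 0.21 ± 0.26 (SE; 95% confidence interval -0.33 to 0.76; limma adjusted p = 0.627), female minus male. PLVAP differed by -0.30 ± 0.27 (interval -0.87 to 0.28; limma adjusted p = 0.512) and TEK by -0.21 ± 0.18 (interval -0.59 to 0.16; limma adjusted p = 0.461). Against males of series A alone these 3 genes were at 0.30, -0.36 and -0.19, and against males of series B alone at 0.11, -0.22 and -0.24, with 0 members passing in both. KDR, at -0.13 (limma adjusted p = 0.866), had an interval of -0.93 to 0.68, and FLT1, at -0.16 (limma adjusted p = 0.560), one of -0.50 to 0.18. PECAM1, on its minor variant alone, differed by 0.33 (interval -0.49 to 1.16; limma adjusted p = 0.619).

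In the 14 libraries that were not muscle-rich, the groups overlapped for every member. KDR had a median of 38.9 and a range of 18.4 to 62.5 in 6 females and a median of 31.2 and a range of 10.9 to 38.7 in 8 males. PLVAP medians were 51.9 and 64.6, TEK 15.8 and 17.9, FLT1 20.1 and 22.5, and CDH5 19.4 and 17.7. Without the muscle-rich libraries 0 members passed, while 39.3% of all genes did, 2.27% higher and 37% lower in females. With median scaling as well, 30.3% of genes passed and so did 2 members, CDH5 at 0.56 (limma adjusted p = 0.0320) and TEK at 0.34 (limma adjusted p = 0.0489). KDR was 0.75 (limma adjusted p = 0.0887) in that fit. The direction of FLT1, TEK and PLVAP therefore turned with the scaling. That of KDR, -0.13 over all 17 libraries, had already turned to 0.30 without the muscle-rich libraries and before scaling. No sex direction is given for KDR, FLT1, TEK and PLVAP.

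**Figure D5:**
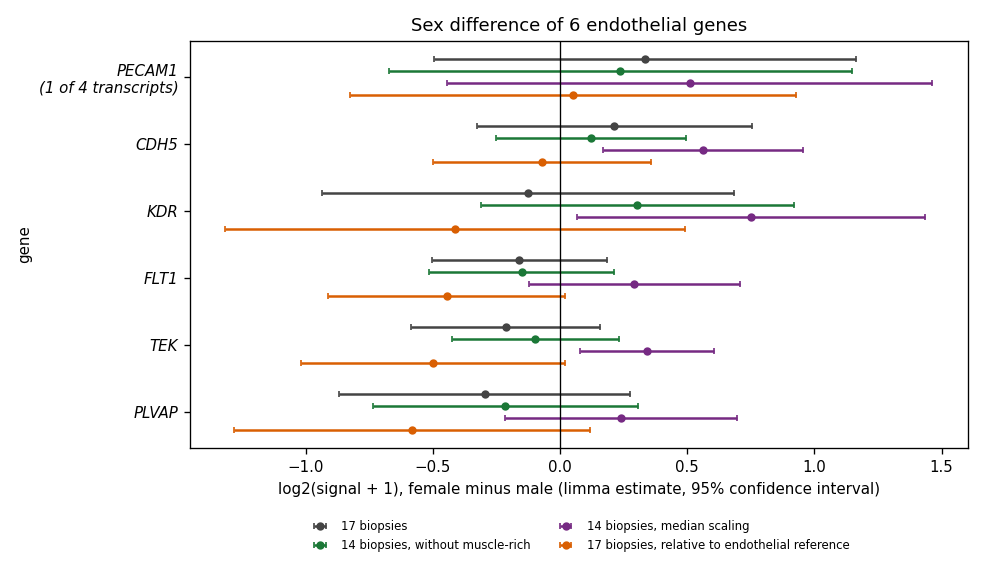
Female minus male difference of 6 members on the log2(signal + 1) scale, with 95% confidence intervals from limma, for 4 fits. The intervals of the 3 fits without median scaling include 0 for all 6 genes. In the fit with median scaling the intervals of CDH5, KDR and TEK lie above 0, and CDH5 and TEK pass after adjustment.

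Relative to 13 reference endothelial genes held for both sexes, which asks whether a member changed beyond other endothelial genes, 0 of 6 members passed, against 24.3% of all genes, 0.0531% higher and 24.3% lower. FLT1 was -0.44 (limma adjusted p = 0.134), TEK -0.50 (limma adjusted p = 0.131) and PLVAP -0.58 (limma adjusted p = 0.186). Male 6 decided this result: without it FLT1 at -0.55 (limma adjusted p = 0.0308), TEK at -0.62 (limma adjusted p = 0.0243) and PLVAP at -0.76 (limma adjusted p = 0.0402) passed, all lower. In that fit 51.9% of all genes passed, 0.107% higher and 51.8% lower, so 3 of 6 members lower is near the share of all genes. Without all 3 muscle-rich libraries the values were -0.46, -0.41 and -0.53, and 0 passed, where 59.8% of all genes did, 0.381% higher and 59.5% lower.

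On the other vessel lists 2 genes passed in the plain comparison of the sexes, both higher in females and both named after their values were seen. In that comparison 0.372% of all genes were higher in females and 13.2% lower. CLDN5, a tight junction protein of endothelium and 1 of 13 reference genes tested, had 13.6 to 25.3 in females and 4.95 to 17.2 in males (0.96 ± 0.21 SE, limma adjusted p = 0.00911). DLL4, a Notch ligand of arterial and sprouting endothelium and 1 of 7 arterial genes tested, had 5.68 to 9.55 in females and 3.29 to 5.56 in males (0.67 ± 0.15 SE, limma adjusted p = 0.00878). The DLL4 ranges did not overlap, but relative to the endothelial reference its limma adjusted p was 0.121, whereas that of CLDN5 was 0.0249. In the plain comparison none of 2 VEGF ligands and co-receptors, 2 angiopoietin genes, 4 genes of glomerular endothelium or 6 peritubular and vein genes passed. Relative to the endothelial reference, ANGPT1 of the 2 angiopoietin genes was lower in females (-0.88, limma adjusted p = 0.0297), as were 24.3% of all genes. These counts depend on the fit. Some rest on part of the transcripts of a gene. In female 3, those held for both sexes gave 3.48 of the 15.8 of ERG, 7.58 of the 42.8 of SEMA3G and 3.01 of the 24.2 of TIE1. Without the muscle-rich libraries, 3 of 12 reference genes (CLDN5, ERG and EGFL7) and 2 of 7 arterial genes (DLL4 and SEMA3G) were higher in females. CA4 and AQP7 of 3 muscle and continuous capillary genes and TFPI of 4 coagulation and adhesion genes were lower. Of all genes 2.27% were higher in females and 37% lower in that fit. CA4, AQP7 and TFPI did not pass as lower once median scaling was added. With median scaling as well, 8 of 12 reference genes and 3 of 7 arterial genes were higher, as were TIE1 of 2 angiopoietin genes, GPIHBP1 of 3 muscle and continuous capillary genes and ICAM1 of 4 coagulation and adhesion genes, where 15.2% of all genes were higher and 15.1% lower.

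Within each sex, no gene passed a limma test of signal against labelled age, 0% of 12867 genes in females and 0% of 9496 in males, where 693 and 972 genes had an unadjusted p under 0.05. No member was among those genes. EHD3 had a slope of -0.64 per year (limma adjusted p = 0.449) in females. Both muscle-rich females were labelled 19, the highest age, and without them the slope of EHD3 was -0.11.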

How the data were processed

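RNA sequencing of stranded mRNA libraries was done on 8 female and 9 male kidney cortex biopsies. Each sex has a deposited table, which gives the signal of every transcript in every library beside the colour of its co-expression module. The submitters' processing notes name Partek. How reads were aligned, quantified and scaled, and on which build, is not given here by any source. A scale that differs between the 2 tables therefore cannot be told apart from a sex difference. The lowest deposited value was 1 in both tables. Coordinates are those of the tables, on sequences with RefSeq names. Of the male table, 17119 complete rows were held (64.3% of the 26644 transcripts listed for females), and the rest was not analysed here. Of each library's low values, 18.8% to 64.2% were whole multiples of its most frequent low value, within a tolerance of 0.1 of that value. Values could thus not be turned back into reads, and limma took the place of the count test that the design named for counts.

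The offset of 1 was removed and transcripts were summed per gene. A gene entered the sex tests when its signal reached 1 in 8 or more of the 17 libraries, the tests within 1 sex when it did so in 4 or more, and the description of muscle-rich females when it did so in 2 or more females. limma 3.58.1 in R 4.3.3 was fitted to log2(signal + 1), with the prior variance following mean signal. P-values were adjusted by the Benjamini-Hochberg method over all genes tested. Fold changes on this scale understate the change of low genes. Sex was tested on all 17 libraries, and again with the mean log2 signal of 13 other endothelial genes subtracted from each library. Some of these genes, among them TIE1, ESAM and ERG, entered on part of their transcripts alone. Age was tested within each sex. The fits were tested on simulated data. Alternatives were other scalings, pseudocounts and filters, leaving out the muscle-rich libraries or each library in turn, males of 1 library series, and age as a term. Tables were handled in Python 3.11.15 with numpy 2.4.6 and pandas 2.3.3. Named genes are all 9 members, at most 3 genes of each list by highest mean signal, and the 3 genes most like the members by Pearson correlation. Other genes were named after their values were seen. The members and lists were chosen with earlier results of these data known. The platelet list was not analysed here. Some genes of the podocyte list are not reported here and were left out of its sums and counts.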

Additional observations from a re-analysis of the deposited data

Results flagged for a closer look

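Members were checked for single libraries that stood apart from the rest of their group, over 15 sets of values, of which chance flags about 5%. PLVAP in females had female 3 at 116.0, with the next highest female at 60.8. TEK in females had female 3 at 28.8, with the next at 17.8. CDH5 in males had the muscle-rich male 6 at 48.1, with the next at 27.5. Female 3 was also the one female outside the muscle-rich pair with the sum of NPHS1, WT1 and PTPRO near 0, at 1.41. Its UMOD, 11030, was the highest of all libraries. The proximal tubule gene SLC34A1 was at 31.5 in it, against 267.9 to 744.8 in females 4 to 8. The part of these differences in the high PLVAP and TEK of female 3 was not tested.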

How the results depend on the processing

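The call of 0 members between the sexes held under each alternative except the fit without the muscle-rich libraries and with median scaling, where 2 members passed. That fit gave 0.75 for KDR, 0.29 for FLT1, 0.34 for TEK and 0.24 for PLVAP, all turned in sign against the fit to all libraries. Median scaling of all libraries gave 0.26, 0.22, 0.16 and 0.0954 for the same genes in that order, and upper quartile scaling 0.21, 0.17, 0.12 and 0.0456. KDR was 0.30 without the muscle-rich libraries and -0.32 to 0.14 when each library was left out in turn. PECAM1 turned to -0.20 with males of series A alone. With age as a term, CDH5 was -1.05, KDR 0.88 and PLVAP 0.17, in a fit where the ages of the sexes do not overlap. Relative to the endothelial reference, 0 to 3 members passed as each library was left out, 3 without male 6. PECAM1 turned in sign with a pseudocount of 10 (-0.10), without the muscle-rich libraries (-0.0764) and with series A alone (-0.52), and ran from -0.15 to 0.23 as libraries were left out. With age as a term, KDR was 1.16, FLT1 0.23, TEK 0.23 and PLVAP 0.45. Slopes on age in females turned for TEK (-0.0885) and PLVAP (-0.0738) with median scaling and for VWF (-0.0566) without the muscle-rich pair. In males they turned for PECAM1 (0.0157), KDR (0.0450) and TEK (0.0263) with median scaling and for PECAM1 (0.11), CDH5 (-0.00922) and KDR (0.0423) without male 6. The cause of these turns was not tested. No paired analysis was possible because the labels give the animals no shared replicate numbers. Read depth is unknown, and low values such as PECAM1 variant X8 carry an unknown counting error.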

Other observations

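The signal of VWF was divided among its 3 variants in the same way in females 6 and 7, the libraries with little VWF next to female 5. Variant X1 held 2.30% in both, variant X2 10.3% in both and variant X3 87.4% in both. In the other females that were not muscle-rich, variant X3 held 4.61% to 48.0%. The total VWF signal was 5.09 and 2.68 in females 6 and 7.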
